A study of Homo sapiens with 3 samples.

Results

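The clustered replication-dependent histone genes were followed across growing, oncogene-induced senescent and replicatively senescent human fibroblasts. Members were all genes of the platform's probe annotation whose single symbol is H1-1 to H1-6, or H2AC, H2BC, H3C or H4C followed by a number. The rule took 42 of 19775 named genes, read by 48 of 54613 probe sets. They comprised 6 genes of linker histone H1 with 7 probe sets, 8 of H2A with 10, 13 of H2B with 14, 7 of H3 with 8 and 8 of H4 with 9. Of the 48 probe sets 36 end in _at and 12 in _s_at or _x_at, the endings Affymetrix gives to sets whose probes can bind several transcripts. Of the 42 genes 40 lie on chromosome 6 and 2 on chromosome 1.

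All 3 samples were IMR-90 ER:Ras cells, a derivative of the normal lung fibroblast line IMR-90 named for an inducible Ras protein, so the untreated cells carried the fusion as well. The fusion couples Ras to a hormone receptor domain, and adding 4-OHT (4-hydroxytamoxifen) activates it. Growing cells had no treatment. Oncogene-induced senescence (OIS) was reached by exposure to 4-OHT at 100 nM, lasting 6 days, and replicative senescence (RS) by 10 weeks of repeated passage. Each state was measured on 1 array without a replicate, so no difference between states could be tested. How precise the values are is limited by there being 3 arrays.

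Histones are the proteins around which DNA is wrapped. A pair of each of H2A, H2B, H3 and H4 forms the core of the nucleosome, and H1 binds the linker DNA between cores. The clustered genes lack introns as a rule, are transcribed mainly in S phase to package new DNA, and give mRNAs that end in a stem-loop in place of a poly(A) tail. Some of them also give polyadenylated mRNA, mostly outside S phase. The labels name the standard Affymetrix cRNA procedure and no primer, so how well each of the 2 kinds of transcript was captured is not known from them. The signals do not tell the 2 kinds apart, and a ratio need not stand for the histone mRNA as a whole.

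The arrays were alike in scale, with median signals of 46.2, 45.3 and 44.9 in growing, OIS and RS cells. Signals are linear MAS5 values in arbitrary units, and the pooled median of 45.5 served as a floor to which lower values were raised. The fibroblast identity of the cells was borne out by its markers, since all 10 listed fibroblast markers, such as COL1A1 and VIM, were above the floor on every array. DCN was 2.59-fold lower in OIS than in growing cells and 2.97-fold lower than in RS, and LUM was 2.22-fold lower in OIS than in RS. Of the 5 endothelial markers CDH5 and CLDN5 were below the floor on every array. PECAM1, VWF and ROBO4 were above it on every array and passed 2-fold upward in OIS, where the summed signal of the list was 857 against 234 in growing cells and 215 in RS. Of the 5 epithelial markers, CDH1, KRT5 and KRT14 were below the floor on every array, and EPCAM (157, 49.1 and 194 in growing, OIS and RS cells) and SFTPC (80.7, 68.7 and 47.4) were above it on every array. The list summed to 289, 175 and 287. Of 3 blood markers with a probe set PTPRC was below the floor throughout, ITGAM was above it throughout (48.2, 66.0 and 64.1) and CD3E was above it in OIS alone, and their sums were 68.8, 129 and 102. The part of these markers in the results on histones was not tested. The SD of a log2 ratio between 2 probe sets of the same gene, taken per probe set over 6759 genes, was 0.36 for OIS over growing, 0.33 for RS over growing and 0.37 for OIS over RS. It covers probe error and not the spread between cultures.

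The first question was whether these S phase genes were lower in cells that had stopped dividing. On the probe sets that name 1 histone gene, none of the 19 members above the floor on all 3 arrays was 2-fold lower in either senescent state. In OIS 5 of the 19 were at least 2-fold higher, and the median log2 ratio was 0.77. In RS 9 of the 19 were, and the median was 0.97. Among all 11295 genes above the floor on all 3 arrays, 4.53% passed 2-fold upward and 6.94% downward in OIS, with a median of -0.02. In RS the same shares were 3.46% and 5.72%, with a median of -0.01. In bulk RNA a change in the share of cells in a given phase and a change in RNA per cell cannot be told apart.

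A further 8 members were above the floor on 1 or 2 arrays and 15 on none. Counting all 27 members above the floor somewhere, 2-fold or more higher were 6 in OIS and 11 in RS, and 0 were 2-fold lower in either state. Among the 13466 genes measured in this way 4.92% were higher and 6.63% lower in OIS, and 3.72% and 5.58% in RS. Members enter that count because at least 1 array was bright, so the 19 are the fairer set. The absence of lower members rests on the floor. With a floor of 11.7 signal units, the 25th percentile, 39 members were measured. In OIS 1 of them was 2-fold lower and 8 higher, against 9.37% and 8.50% of all 18131 genes measured at that floor. In RS 6 were lower and 13 higher, against 8.90% and 7.26%. The 6 were H1-1, H1-4, H1-5, H3C8, H4C7 and H4C13. Of these only H1-4 and H3C8 reached 45.5 on any array, and both were also 2-fold lower in RS with a pseudocount of 16 in place of a floor. The 15 dim members lay between 1.2 and 39.4, and no order is read from such values.

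**Figure D1:**
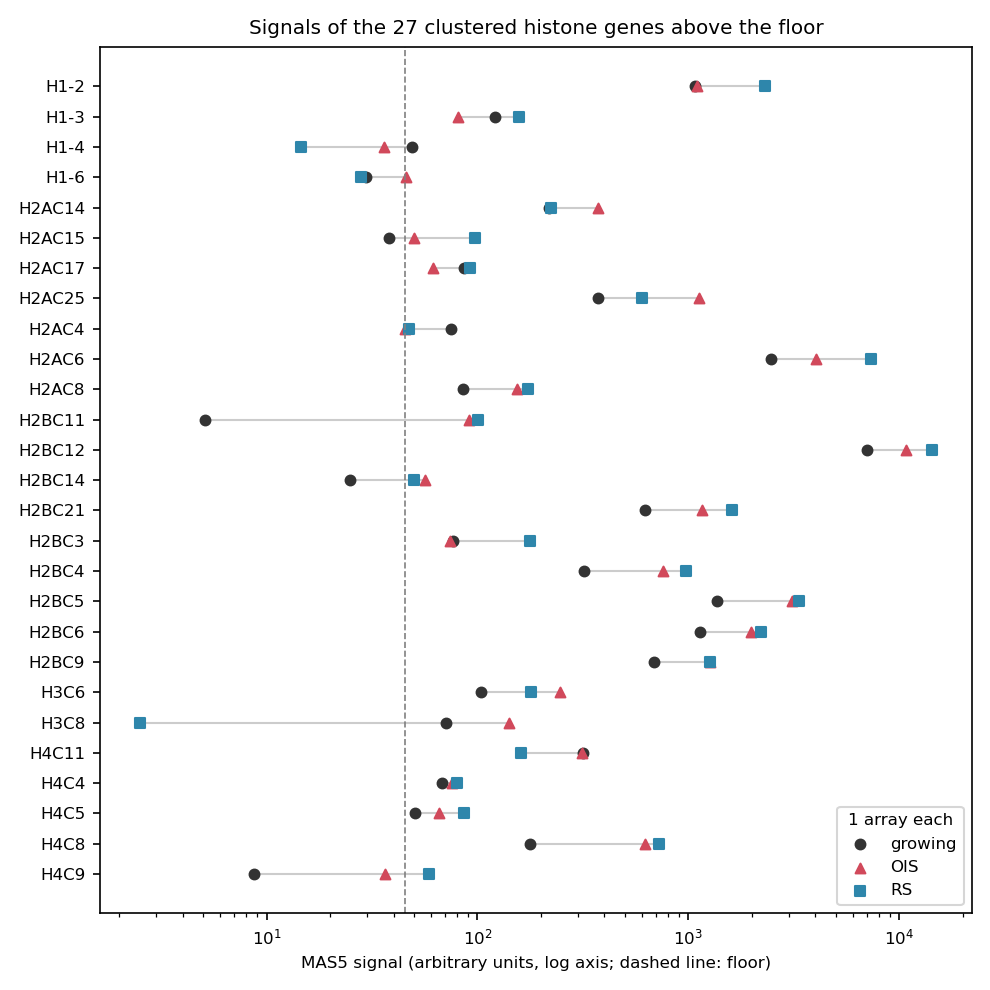
MAS5 signal (arbitrary units, log axis) of the 27 clustered histone genes above the floor on at least 1 array, 1 point per array, with the dashed line at the floor of 45.5. For each gene the probe set with the highest mean is drawn. All 9 H2B genes shown have their RS point to the right of the growing point, whereas H1-4, H1-6, H2AC4, H3C8 and H4C11 have it to the left. H2BC11 and H2BC14 are below the floor in growing cells and are shown only because the senescent arrays passed it, which fixes their direction. H1-4 is shown only through its growing array.

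The H2B genes made up the largest group. All 7 H2B genes above the floor on every array had a higher signal in RS than in growing cells, with log2 ratios from 0.89 to 1.61 and a median of 1.21, and 5 passed 2-fold. In OIS 6 of the 7 were higher, with a median of 0.89 and 2 past 2-fold. The probe sets of H2BC5, H2BC6, H2BC9 and H2BC21 end in _s_at or _x_at and can bind several transcripts, so the 7 may not be separate readings. H2BC4 had a signal of 319 when growing, 759 in OIS and 974 in RS, so that both senescent arrays were above the growing one. That is 2.38-fold higher in OIS and 3.06-fold in RS, on a probe set ending in _at. H2BC21, a gene of the chromosome 1 cluster, had 624, 1165 and 1606 in the same order, 1.87-fold and 2.57-fold higher. H2BC12 had 7027, 10742 and 14344, 1.53-fold higher in OIS and 2.04-fold in RS.

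H2BC5 was read by 2 probe sets, both ending in _x_at, that gave the same picture. The first had 1363 when growing, 3088 in OIS and 3358 in RS, 2.27-fold and 2.46-fold higher, and the second was 2.09-fold and 2.20-fold higher. On _x_at sets as well, H2BC6 had 1136, 1975 and 2218, with folds of 1.74 and 1.95, and H2BC9 had 685, 1273 and 1266, with folds of 1.86 and 1.85. These last genes lay just short of 2-fold, while H2BC12 lay just past it in RS. H2BC3 departed from the others in OIS, with 76.8 when growing, 73.7 in OIS and 178 in RS. It was 1.04-fold lower in OIS, within probe error, and 2.32-fold higher in RS.

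H2BC11 and H2BC14 were below the floor in growing cells, so their folds are lower bounds. H2BC11 had 5.1 when growing, 91.6 in OIS and 100.1 in RS, higher by at least 2.01-fold in OIS and 2.20-fold in RS. H2BC14 had 24.8, 56.2 and 50, higher by at least 1.24-fold in OIS and 1.10-fold in RS. H2BC1, a gene known from testis, H2BC13, H2BC15 and H2BC17 were below the floor on every array.

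Since H2B genes were higher together, the 250 bases before their start sites are shown for 3 of them, beside H4C8 and the H1 gene that passed 2-fold in RS. Sequences are from RefSeq (GRCh38.p14), 5′ to 3′ on the gene's strand, and each gene lies on the minus strand. The windows are chr6:26123927-26124176 for H2BC4, chr6:27146859-27147108 for H2BC12, chr1:149886683-149886932 for H2BC21, chr6:26285535-26285784 for H4C8 and chr6:26056471-26056720 for H1-2. Capitals mark 4 motifs on either strand: TATAAA (the TATA box), CCAAT, the octamer ATTTGCAT known from H2B promoters, and AAACACA, known from H1 promoters.
H2BC4: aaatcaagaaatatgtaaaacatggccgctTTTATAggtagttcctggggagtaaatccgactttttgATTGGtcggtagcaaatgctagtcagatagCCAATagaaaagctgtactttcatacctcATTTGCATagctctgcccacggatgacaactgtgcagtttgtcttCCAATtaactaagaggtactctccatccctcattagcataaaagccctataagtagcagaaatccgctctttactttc
H2BC12: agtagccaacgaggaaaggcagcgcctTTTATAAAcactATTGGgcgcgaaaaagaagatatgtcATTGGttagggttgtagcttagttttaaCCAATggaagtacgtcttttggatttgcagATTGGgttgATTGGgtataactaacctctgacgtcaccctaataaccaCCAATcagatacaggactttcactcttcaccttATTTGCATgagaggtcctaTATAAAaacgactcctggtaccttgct
H2BC21: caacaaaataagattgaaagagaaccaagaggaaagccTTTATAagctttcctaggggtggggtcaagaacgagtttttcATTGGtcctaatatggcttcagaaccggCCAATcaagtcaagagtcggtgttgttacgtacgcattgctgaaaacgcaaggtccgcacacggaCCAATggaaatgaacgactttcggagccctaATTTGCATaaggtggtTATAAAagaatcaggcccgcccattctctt
H4C8: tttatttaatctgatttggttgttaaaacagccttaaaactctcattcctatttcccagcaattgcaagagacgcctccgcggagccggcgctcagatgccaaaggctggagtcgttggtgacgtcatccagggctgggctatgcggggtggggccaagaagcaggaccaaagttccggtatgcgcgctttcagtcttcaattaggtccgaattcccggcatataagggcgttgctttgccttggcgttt
H1-2: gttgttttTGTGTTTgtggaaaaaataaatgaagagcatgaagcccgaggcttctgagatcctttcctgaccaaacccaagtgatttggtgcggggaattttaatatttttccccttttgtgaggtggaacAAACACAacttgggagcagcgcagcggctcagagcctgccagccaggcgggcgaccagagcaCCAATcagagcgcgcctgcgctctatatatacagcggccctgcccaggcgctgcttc

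In H2BC12 and H2BC21 the octamer begins 46 bases before the start site, followed by a TATA box at 27 and 30 bases. In H2BC4 it begins 123 bases before the start. The H2BC12 window has 6 CCAAT motifs, the others with any have 1 or 3, and in H2BC12 a pair of TATA matches on opposite strands overlaps. The H4C8 window held none of the 4 letter strings. RefSeq gave a window for 64 of the 69 genes of this kind that it lists. The octamer was in 14 of 18 H2B and 11 of 16 H2A windows, in 1 of 11 H3 windows and in 0 of 13 H4 and 0 of 6 H1 windows, against 1.66% of 27305 genes. CCAAT was in every window of the H1, H2A, H2B and H3 genes and in 3 of 13 H4 windows, against 33.0% of all genes. TATAAA was in 65.6% of the histone windows and 11.1% of all. AAACACA was in all 6 H1 windows, in none of the other histone windows and in 4.95% of all. Of the 9 measured H2B genes 8 had the octamer, their log2 ratios in RS having a median of 1.08 and a range from 0.14 to 1.61, and the exception, H2BC5, had 1.30. The ratios of H2BC11 and H2BC14, below the floor in growing cells, are lower bounds, and the 0.14 is that of H2BC14. A match is a description of the sequence and not a site of binding.

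Among the H2A genes 5 were above the floor on every array, and all 5 had a higher signal in RS than in growing cells, 2 of them within probe error. H2AC6 shares its promoter region with H2BC4: the start sites of the 2 genes are separated by 245 bases on opposite strands. Its signal was 2470 when growing, 4030 in OIS and 7366 in RS, 1.63-fold and 2.98-fold higher, and like its neighbour it was highest in RS. H2AC25, on chromosome 1 away from the large cluster there, ran the other way. It had 371, 1129 and 606, 3.04-fold higher in OIS and 1.63-fold in RS. Its second probe set, an _x_at set near the floor, gave 47.2, 47.5 and 79.0, so the OIS difference was not seen there. H2AC8 had 85.1, 154 and 173, 1.80-fold and 2.03-fold higher. H2AC14 had 218, 374 and 222, 1.71-fold higher in OIS and 1.02-fold in RS. H2AC17 had 86.0, 61.8 and 92.3 and was 1.39-fold lower in OIS.

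H2AC15 and H2AC4 crossed the floor. H2AC15 had 38.0 when growing, 49.9 in OIS and 97.2 in RS, at least 2.14-fold higher in RS, while its other probe set was below the floor throughout. H2AC4 had 74.6, 45.1 and 47.6, at least 1.64-fold lower in OIS and 1.57-fold lower in RS. It was the H2A gene with the lowest ratio in both states. H2AC16 was below the floor on every array.

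Of the linker histones, H1-2 was the one past 2-fold. Its signal was 1075 when growing, 1098 in OIS and 2315 in RS, so growing and OIS cells were alike within probe error and RS stood apart at 2.15-fold higher. H1-3 had 121, 80.7 and 157, lower in OIS, with a log2 ratio of -0.58, and 1.30-fold higher in RS. H1-4 had 48.8 in growing cells and was below the floor in OIS at 36.0 and in RS at 14.6. H1-6, a linker histone of the testis, reached 46.0 in OIS, just past the floor, and H1-1 and H1-5 were below it throughout.

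Of the H3 genes 1 of 7 was above the floor on all arrays, and of the H4 genes 4 of 8. Among the 19 members above the floor on all arrays H4C8 had the highest ratio in both states. H2BC11, known only by a lower bound, was above it with the floor at the 25th percentile (log2 ratios of 2.97 and 3.10 against 1.82 and 2.04) and with the pseudocount of 16 (2.35 and 2.46 against 1.73 and 1.95). The _s_at probe set of H4C8 gave 177 when growing, 622 in OIS and 727 in RS, 3.52-fold and 4.12-fold higher. Its _at probe set gave 167, 498 and 545, 2.99-fold and 3.27-fold higher, so both sets put the 2 senescent arrays well above the growing one. A set designed on the transcript of H4C8 but naming 14 H4 genes, 208181_at, was below the floor on every array. H4C5 had 50.3, 65.6 and 86.5, 1.30-fold and 1.72-fold higher, and H4C4 had 68.1, 75.9 and 80.4, 1.11-fold and 1.18-fold higher. H4C9 passed the floor in RS alone, at 58.8.

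H4C11 was the member above the floor on all arrays that was lower in RS. It had 317 when growing, 313 in OIS and 161 in RS, 1.97-fold lower in RS. The annotation names this _x_at probe set H4C11, but the transcript it was designed on is that of H4C12 in RefSeq. A set designed on the transcript of H4C11, 208580_x_at, names 14 H4 genes. It was 1.19-fold higher in OIS and 1.20-fold lower in RS. H3C6 was read by 2 probe sets ending in _at. The first had 104, 245 and 180, 2.36-fold higher in OIS and 1.73-fold in RS, and the second 57.9, 77.2 and 62.4, 1.33-fold and 1.08-fold higher. H3C8 had 70.6 when growing, 141 in OIS and 2.5 in RS, which puts it just short of the 2-fold line in OIS, at 1.996-fold, and lower by at least 1.55-fold in RS. The other 5 H3 genes, H3C1, H3C2, H3C3, H3C7 and H3C11, and the H4 genes H4C1, H4C7 and H4C13 were below the floor on every array.

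Both kinds of probe set had positive medians in both states, and over all types together those of the _s_at and _x_at sets were larger. Above the floor somewhere were 20 of 36 probe sets ending in _at and 11 of 12 ending in _s_at or _x_at. In RS the median log2 ratio was 0.75 for the _at sets, with 8 of 20 at least 2-fold higher, and 0.97 for the others, with 5 of 11. In OIS the medians were 0.23, with 5 of 20 higher, and 0.89, with 3 of 11. None was 2-fold lower in either group. Over the 19 genes above the floor on all arrays the gap in OIS was smaller. Their median was 0.38 for 11 genes read by _at sets, 3 of them higher, and 0.85 for the 8 others, 2 of them higher. In RS these medians were 0.79 and 1.13, a wider gap than over the probe sets above the floor somewhere. Over all 25698 measured probe sets 4.38% were higher and 6.43% lower in OIS, and 3.26% and 5.01% in RS. When genes were read from _at sets alone, 19 members were measured and the OIS median fell from 0.61 to 0.16, while that of RS was 0.78 in place of 0.79. All 4 H1 probe sets above the floor somewhere end in _at, with medians of -0.04 in OIS and 0.19 in RS, so ending and histone type are mixed. Within H2B the 5 _at sets had medians of 0.61 in OIS and 1.14 in RS, and the 5 others 0.90 and 1.14.

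A further 20 probe sets name several genes that are all clustered histones. They lie outside the rule, and they are the only ones for 19 of the 69 genes of this kind in RefSeq, while 8 have no probe set. Above the floor somewhere were 16 of the 20. At least 2-fold higher were 7 in OIS and 9 in RS, against 4.38% and 3.26% of the 25698 measured probe sets that name 1 gene. Lower by 2-fold in both states was 1 probe set, against 6.43% of those in OIS and 5.01% in RS. That probe set, 205967_at, names 14 H4 genes and was designed on the transcript of H4C3. It was singled out after its values were seen. It had 20765 when growing, 1808 in OIS and 2020 in RS, 11.5-fold lower in OIS and 10.3-fold lower in RS. Its ratio was the 11th lowest of 25156 probe sets above the floor on both arrays in OIS and the 12th lowest of 25227 in RS.

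The other probe sets naming the same 14 H4 genes did not show this difference. The set 207046_at had 85.8, 139 and 99.7, and 208580_x_at had 226, 270 and 189, all within 1.62-fold of growing cells, and 208181_at and 214516_at were below the floor. So the H4 genes gave ratios in opposite directions, with H4C8 higher and 205967_at lower, and which of its 14 genes 205967_at read is not shown by the array. For H2A, 2 of the probe sets naming H2AC18 and H2AC19 were higher: 214290_s_at had 3207, 10142 and 8952, and 218280_x_at 1661, 5486 and 4692. They were 3.16-fold and 3.30-fold higher in OIS and 2.79-fold and 2.83-fold in RS. Another set naming both genes, 218279_s_at, had 43, 66.4 and 37.4. It was at least 1.46-fold higher in OIS and below the floor in growing cells and RS. For H2B, 210387_at, which names H2BC11 and H2BC8, had 186, 753 and 677, 4.06-fold and 3.65-fold higher. The 3 sets naming H2BC4, H2BC6, H2BC7, H2BC8 and H2BC10 were 1.95-fold to 2.52-fold higher in OIS and 2.23-fold to 3.15-fold in RS. The 2 sets naming 6 H2A genes of chromosome 6 stayed within 1.38-fold of growing cells.

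**Figure D2:**
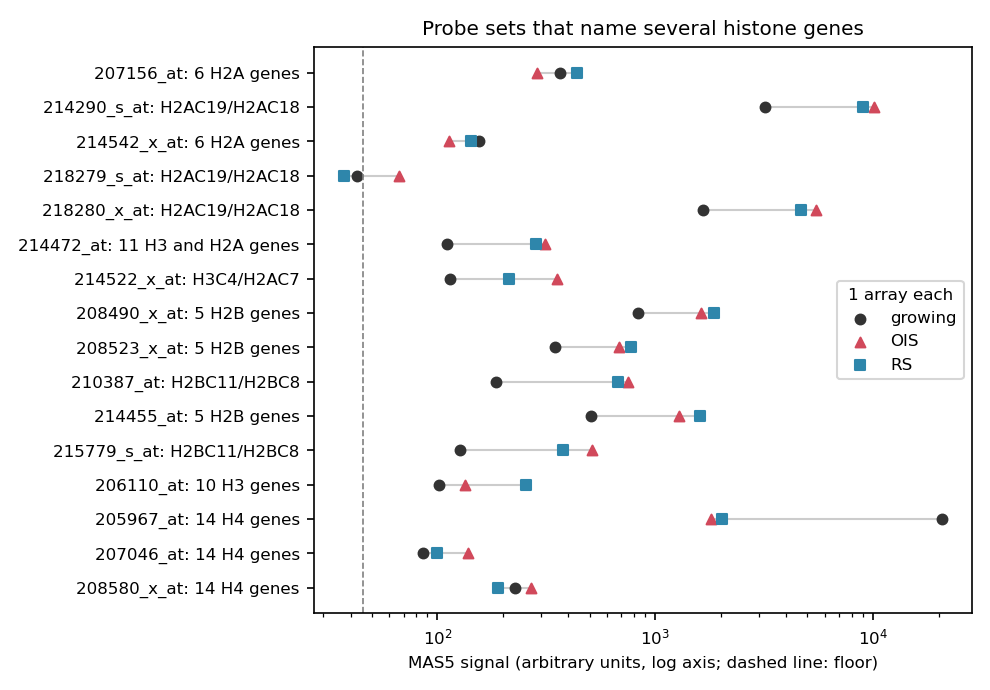
MAS5 signal (arbitrary units, log axis) of the 16 probe sets that name several clustered histone genes and are above the floor on at least 1 array, 1 point per array, with the dashed line at the floor. The set 205967_at is the one with the growing point far to the right, at 20765 against 1808 in OIS and 2020 in RS.

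The 2 senescent states were then compared with each other, to ask whether they differ in histone mRNA. Of the 19 members above the floor on all arrays 14 were lower in OIS than in RS and 5 higher, and the median log2 ratio was -0.23. Among all 11295 genes above the floor on all arrays 5646 were lower and 5647 higher, with a median of 0. Past 2-fold were H2BC3, 2.42-fold lower in OIS, and H1-2, 2.11-fold lower, so 2 of 19 were lower and 0 higher, against 5.15% and 5.03% of all genes above the floor on all arrays. Among the 27 members above the floor somewhere 2 were lower and 1 higher, against 5.27% and 5.48% of the genes measured in that way. H1-3 was 1.94-fold and H2AC6 1.83-fold lower in OIS, while H4C11 was 1.95-fold and H2AC25 1.86-fold higher. H3C8 was at least 3.10-fold higher in OIS, the 1 member past 2-fold that way. Among the H2B genes other than H2BC3 above the floor on all arrays, OIS and RS lay within 1.38-fold of each other.

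The genes that make, carry and use histones during replication were read from fixed lists, chosen like the members with earlier results known. In the S phase reference list 11 of 14 measured genes were at least 2-fold lower in OIS and 11 of 14 in RS, with medians of -2.02 and -1.72. Over all 13466 measured genes 6.63% were lower in OIS and 5.58% in RS. MCM2, a subunit of the replicative helicase, had 1384 when growing, 241 in OIS and 275 in RS, and RRM2, the small subunit of ribonucleotide reductase, had 11396, 2234 and 2792. CCNE2, which encodes the S phase cyclin E2, was 7.31-fold lower in OIS and 3.36-fold in RS. CCNE1 was 1.04-fold and 1.08-fold higher, and E2F1 was 1.55-fold and 1.29-fold lower. The list medians lay opposite to those of the H2B genes. The log2 ratios of 205967_at, -3.52 in OIS and -3.36 in RS, were below the lowest of the list, -2.87 and -2.37.

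Of 18 measured factors of histone gene transcription and mRNA processing, 1 passed 2-fold upward and 1 downward in OIS, and none passed 2-fold in RS. The medians were -0.06 and -0.17. Over all measured genes 4.92% were higher and 6.63% lower in OIS, and 3.72% and 5.58% in RS. With 18 genes, the counts of this list lie near those shares. SLBP, which binds the stem-loop of histone mRNA, had 6372, 4775 and 5630, 1.33-fold and 1.13-fold lower. NPAT, the coactivator of histone genes in S phase, had 630, 714 and 438, 1.13-fold higher in OIS and 1.44-fold lower in RS. CASP8AP2, which encodes the processing factor FLASH, was 1.60-fold and 1.63-fold lower. ERI1, an exonuclease that trims the end of histone mRNA, was 2.10-fold lower in OIS and 1.79-fold in RS. TUT7, a uridylyltransferase that marks RNA for decay, was 2.05-fold higher in OIS and 1.43-fold in RS.

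Of 23 measured histone chaperones and supply genes 4 were at least 2-fold lower and 1 higher in OIS, and 5 were lower and 0 higher in RS, with medians of -0.28 and -0.57. The shares over all measured genes were 6.63% lower and 4.92% higher in OIS, and 5.58% and 3.72% in RS. CHAF1B, a subunit of the assembly factor CAF-1, had 218, 52.9 and 69.3, 4.13-fold and 3.15-fold lower. CHAF1A of the same factor was 2.39-fold and 1.91-fold lower, and ASF1B, which hands H3 and H4 to it, 2.80-fold and 3.31-fold lower. HJURP, the chaperone of the centromeric variant CENPA, was 9.04-fold and 7.02-fold lower. NASP, which guards soluble H3 and H4, was 1.49-fold lower in OIS and 2.85-fold in RS. HIRA, of the assembly pathway that works outside S phase, was 1.04-fold higher and 1.21-fold lower. DAXX, a chaperone of the variant H3.3, was 2.85-fold higher in OIS and 1.44-fold lower in RS.

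Among 10 measured replacement histones, which are made outside the clusters, 2 were at least 2-fold lower and 0 higher in OIS, and 5 were lower and 1 higher in RS. Of all measured genes 6.63% were lower and 4.92% higher in OIS, and 5.58% and 3.72% in RS. H2AX, which marks DNA breaks once phosphorylated, had 4845, 1753 and 1498, 2.76-fold and 3.23-fold lower. CENPA was 5.30-fold and 6.91-fold lower, and H2AZ1 1.38-fold and 2.12-fold. H2AJ, a variant H2A, had 2464, 4014 and 4034, 1.63-fold and 1.64-fold higher. H2BC12L, a copy of an H2B gene read by an _x_at probe set, had 2247, 4256 and 5878, 1.89-fold and 2.62-fold higher. Its sequence is close to that of other H2B genes, so which of these genes the probe set reads is uncertain.

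**Figure D3:**
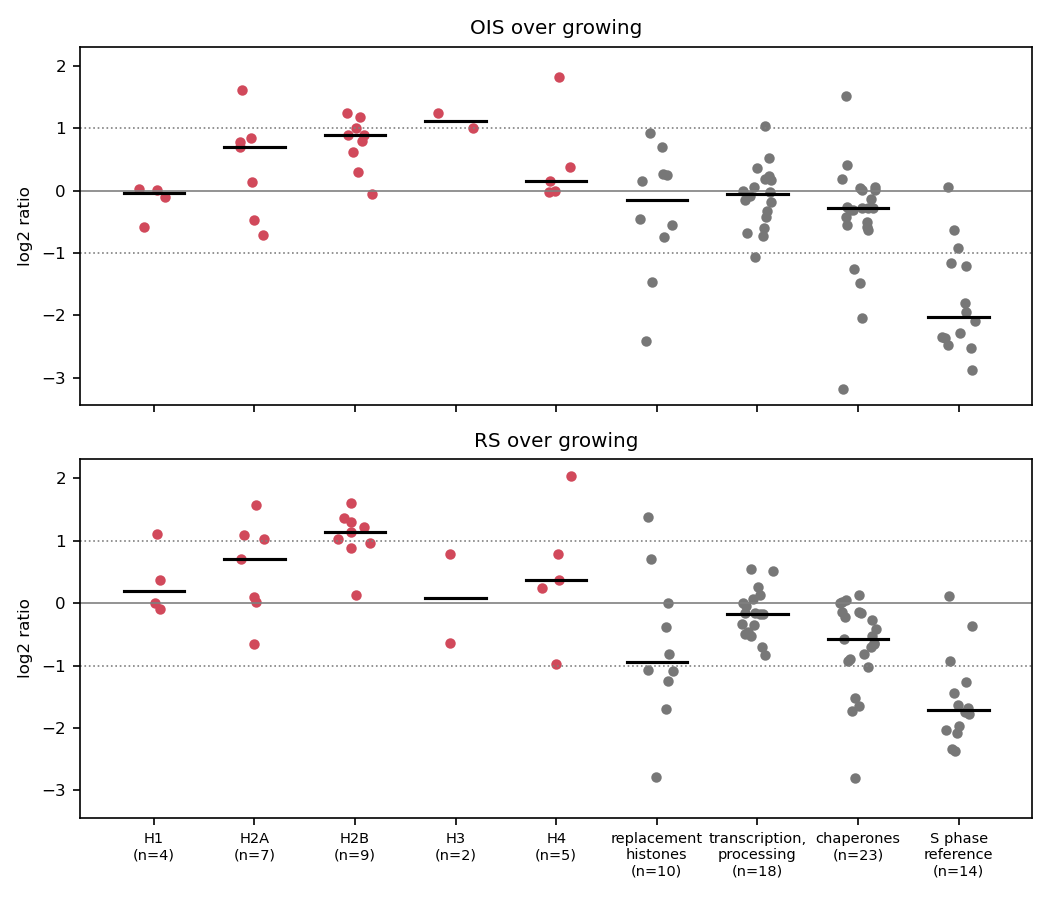
Log2 ratio of OIS (top) and RS (bottom) over growing cells for the measured clustered histone genes by type (red) and for the measured genes of the fixed lists (grey), with bars at the medians and dotted lines at 2-fold. The H2B medians of 0.89 and 1.14 lie near the upper 2-fold line, and the S phase reference medians of -2.02 and -1.72 lie beyond the lower one. The H2B genes drawn include H2BC11 and H2BC14, which are below the floor in growing cells. The 7 above it on every array had medians of 0.89 and 1.21. Both panels share the growing array.

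The clustered genes were set beside the other protein-coding genes that lie between them. On chromosome 6, 19 such genes start between the outermost histone genes, 12 were measured and 11 were above the floor on all arrays. In RS 0 of the 11 were at least 2-fold higher and 1 lower, with a median of -0.22. Among all genes above the floor on all arrays 3.46% were higher and 5.72% lower in RS, so these counts of neighbours lie near the shares over all genes. Of the 17 histone genes of chromosome 6 above the floor on all arrays 8 were higher, 0 lower and the median was 0.97. The 1 lower gene was ZNF184, a zinc finger gene, whose signal of 777 when growing and 323 in RS made it 2.40-fold lower. In OIS 3 of the 11 were higher, the butyrophilins BTN2A2 at 4.48-fold, BTN3A1 at 2.46-fold and BTN2A1 at 2.14-fold, against 4 of the 17 histone genes, with medians of 0.31 and 0.71. The share higher in OIS over all genes above the floor on all arrays was 4.53%. BTN2A2 and BTN3A1 were 1.22-fold higher and 1.10-fold lower in RS. The difference between histone genes and their neighbours was not tested.

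**Figure D4:**
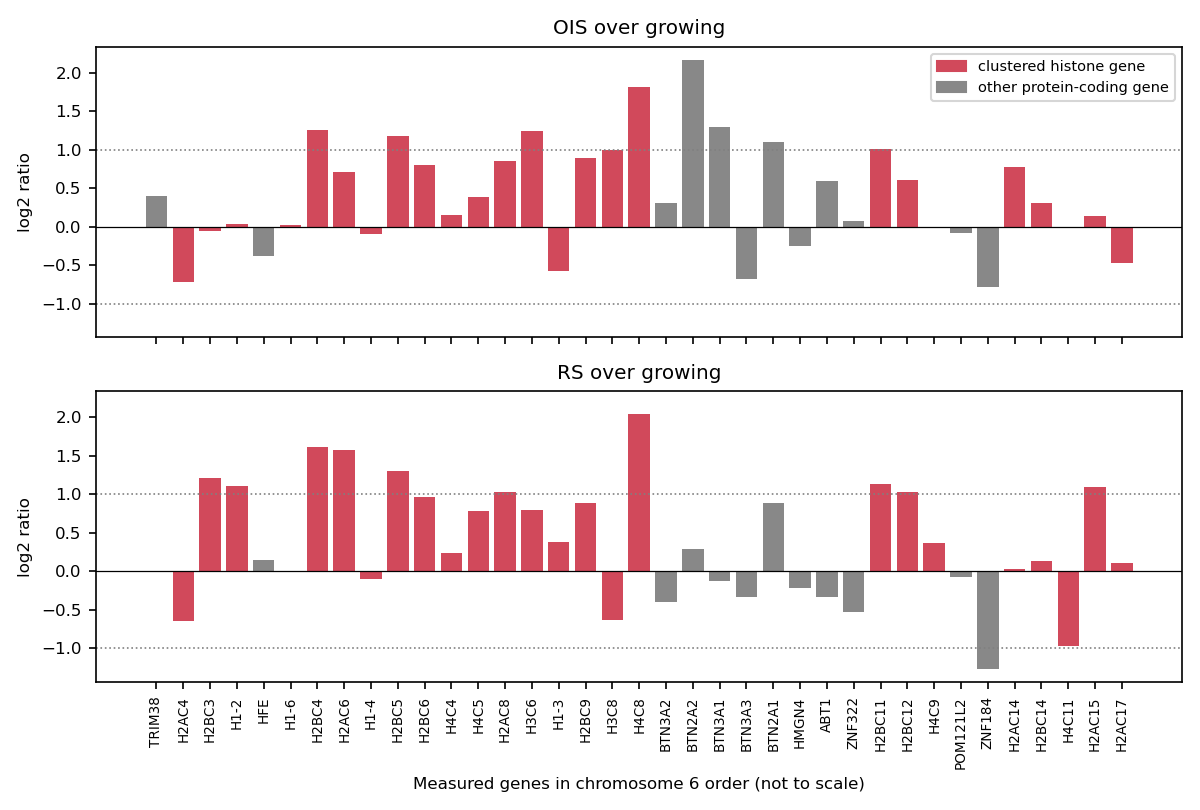
Log2 ratio of OIS (top) and RS (bottom) over growing cells for the measured protein-coding genes between the outermost histone genes of chromosome 6, in chromosome order and not to scale. Histone genes are red and other genes grey, and dotted lines mark 2-fold. In RS the red bars reach past 2-fold 10 times, among them H2BC11 and H2AC15, which are below the floor in growing cells, and the grey ones pass it once, downward at ZNF184.

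A feature outside the rule is the length of the gene model. Most members span about the length of a histone mRNA, but 5 of the 27 measured ones, H2BC4, H2BC5, H2BC12, H2BC21 and H3C6, span over 1000 bases in RefSeq, up to 13229 for H2BC5. This split was chosen after the values were seen. All 5 were higher in both senescent states, with medians of 1.18 in OIS and 1.30 in RS and ranges from 0.61 to 1.25 and from 0.79 to 1.61. All 5 were above the floor on every array. The 14 shorter members of which that is true had medians of 0.54 and 0.83 and ranges from -0.58 to 1.82 and from -0.98 to 2.04, which overlap those of the long ones. H4C8, H2AC6 and H1-2 were among the shorter members at least 2-fold higher in RS.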

How the data were processed

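RNA of 3 cultures was measured on 1 Affymetrix array each. The authors deposited a linear signal intensity per probe set, which the submitters' processing notes credit to MAS5. The sources used here give no version, settings or genome build. The 2% trimmed means, 497.3, 497.2 and 497.2, show that arrays were scaled alike, which removes any shift common to all genes. Single genes were named by 41091 probe sets, several by 1801 and none by 11721. Identifiers of 41037 sets were in RefSeq and 0 symbols changed.

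Values below the pooled median, 45.5, were raised to it, and log2 was taken. Of a gene's probe sets the one with the highest mean on the log2 scale was used. A gene counted as measured when that set was above the floor on any array, as for 13466 of 19775 genes. "At least" marks a fold whose dimmer array is at or below the floor. With 1 array a state there are no tests, p-values or errors between states. Members and lists were chosen with earlier results of these data known. Named were all members above the floor and, of each fixed list, genes past 2-fold or with the most extreme ratios. NPAT, CASP8AP2, SLBP, HIRA and H2AJ were named for their roles, after their values were seen. Motifs were sought in the first RefSeq window of each gene. Steps were tested on simulated data. Python 3.11.15, numpy 2.4.6, pandas 2.3.3, scipy 1.17.1 and matplotlib 3.10.9 were used.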

Additional observations from a re-analysis of the deposited data

How the results depend on the processing

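No paired analysis was possible because each state had 1 array, and no replicate could be left out. Quantile normalization and centring on the median of all genes left every count and median within 1.5 times of the value given. With the floor at the 25th percentile, 1 of 39 members was 2-fold lower in OIS and 6 in RS, against 9.37% and 8.90% of all genes. The medians were 0.3831 in OIS, 0.3757 in RS and -0.0778 for OIS over RS. At that floor 4 members were higher in OIS than in RS, against 9.55% of all genes. With the floor at the 60th percentile (88.8), 0 of 20 members were higher in OIS than in RS, against 5.11% of all genes. Without a floor and with a pseudocount of 16, 2 of 27 members were lower in RS, against 6.57% of all genes. With genes below the floor on all arrays included, the medians were 0 in OIS, 0.0641 in RS and 0 for OIS over RS. Without _s_at and _x_at probe sets the OIS median was 0.16, and 0 of 19 members were higher in OIS than in RS, against 5.53% of all genes. At 3-fold, 2 of 27 members were higher in OIS, 2 in RS and 0 lower in OIS than in RS. Over all genes these shares were 2.16%, 1.09% and 1.87%. In an alternative chosen after seeing the data, probe sets were counted in place of genes, with those naming several histone genes. Of 47 such sets 15 were higher and 1 lower in OIS, and 22 were higher and 1 lower in RS. Among the 25698 measured probe sets that name 1 gene 4.38% were higher and 6.43% lower in OIS, and 3.26% and 5.01% in RS. Of 603 values of single genes under these and the other settings tried 564 stayed within the SD of a single probe set of the value given and 39 moved further, and no member past 2-fold changed sign. Signals near the floor limit every statement on dim members.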
